A study of Zea mays with 7 samples.

Results

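The genes described here are the tRNA genes of maize chromosome 2, which are all genes of biotype tRNA that the RefSeq annotation of the B73 genome, version 5 (assembly Zm-B73-REFERENCE-NAM-5.0), places on that chromosome. They number 153 of the 5872 annotated genes, and 17 lie before the b1 locus while 136 lie beyond it. RefSeq names each by the amino acid in its letter code and the anticodon, so that TRNAG-UCC is a glycine tRNA gene with the anticodon UCC. The rule uses the annotation and no measured value, although it was set with earlier results of these data known.

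Small RNAs recovered by immunoprecipitation of AGO104, an ARGONAUTE protein of reproductive tissues, were sequenced from ears. The study's results text calls these ears immature, whereas a figure caption for the same sequencing calls them mature. mm plants are homozygous for mop1-1 (mop1-1/mop1-1), a mutation of the RNA-directed DNA methylation (RdDM) factor MOP1 that lowers 24-nt siRNAs, and Mm plants are heterozygous (Mop1-1/mop1-1). B73 is the inbred line of the reference genome, which the labels call the siRNA control. mm, Mm and B73 had 2 libraries each, and 1 further library, numbered replicate 2, is labelled ago104 with no allele or zygosity given. The mop1-1 stock carries the B' epiallele of b1 and B73 the neutral b allele, so in any comparison with B73 the mop1-1 alleles and the rest of the genetic background cannot be told apart. The labels name AGO104 and AGO105 together as the antibodies of every library, and neither the genotypes nor the tissue can be checked from small RNA coverage of 1 chromosome. The 2 libraries of a genotype are described as biological replicates.

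tRNAs carry amino acids to the ribosome, and each recognises its codons through the anticodon. RNA polymerase III transcribes their short genes, the transcript is trimmed at both ends, and the bases CCA are added at its 3' end, which nuclear plant genes do not encode. Cleaved tRNAs also give short fragments from either end, and plant ARGONAUTE proteins are known to carry some of them, next to the siRNAs and miRNAs that are their better known cargo.

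The deposited values are coverage, the number of alignments over each base of chromosome 2. Coverage over a gene was summed and scaled to a total of 1000000 per library, and these scaled units are used for every level below. The rebuilt alignments numbered 936656 to 4431623 in the 6 libraries of mm, Mm and B73 and 20104173 in the ago104 library, of which 8055 to 25789 and 110842 lay in tRNA genes. Mean depth inside tRNA genes was 37.6 to 148 times that of the sequence 20 to 200 bp on either side in the 6 libraries, and 66.7 times in the ago104 library. Between 109 and 119 of the 153 genes were deeper than their own flanks in the 6 libraries. That ratio is of mean depths, to which the few most covered genes contribute most.

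**Figure D1:**
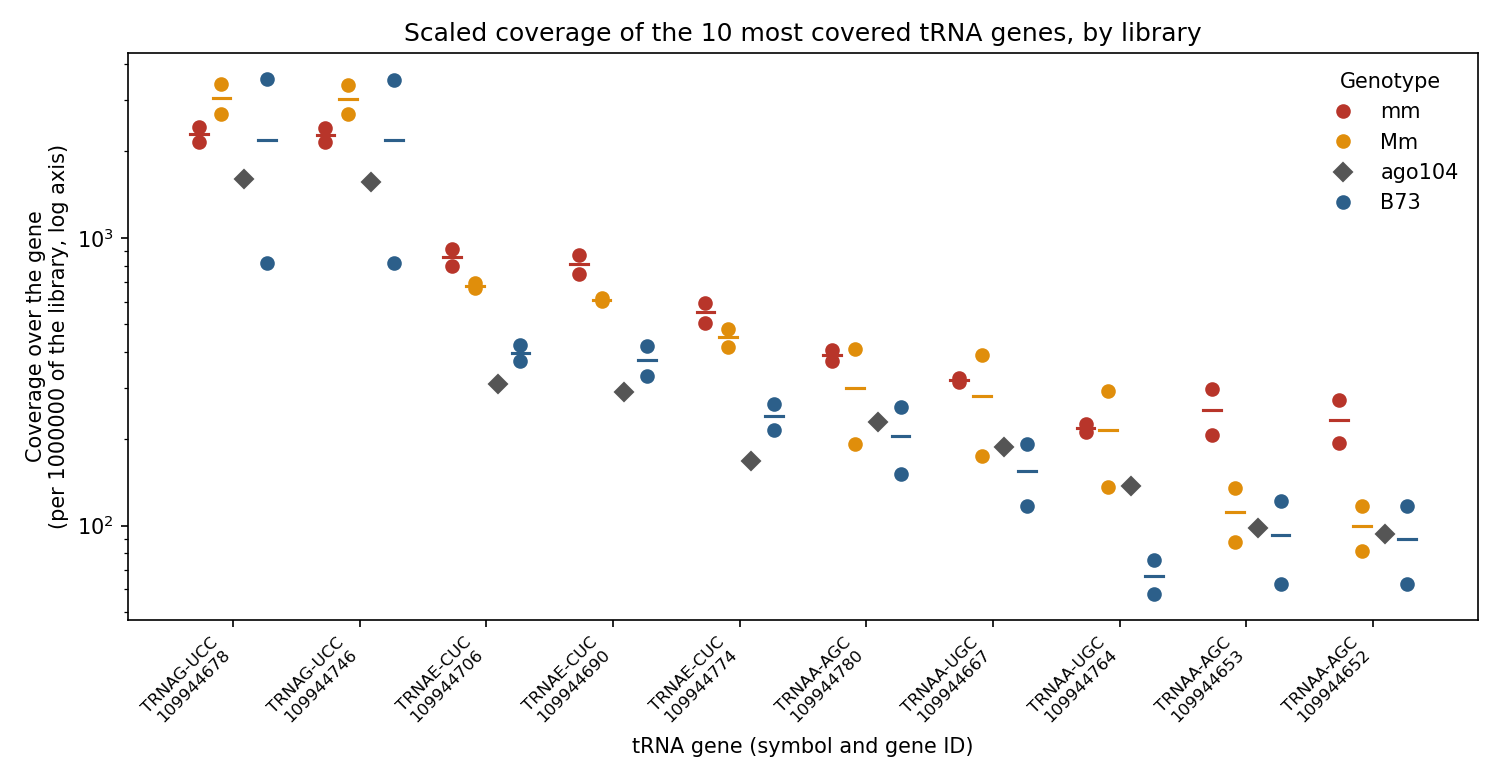
Scaled coverage (vertical log axis, coverage over the gene per 1000000 of the library) of the 10 tRNA genes with the highest mean, with 1 point per library and a bar at the mean of the 2 libraries of mm, Mm and B73. Both TRNAG-UCC genes stand at 816 scaled units or more in every library, and the mm points of the 3 TRNAE-CUC genes lie above those of Mm, ago104 and B73.

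The most covered tRNA genes were a pair for glycine, TRNAG-UCC gene ID 109944678 (chromosome 2, 70689467 to 70689538) and gene ID 109944746 (240310891 to 240310962). Gene ID 109944678 had 2159 and 2417 scaled units in mm, 2700 and 3413 in Mm, 1604 in ago104, and 3568 and 819 in B73. The B73 libraries alone spanned more than the whole range of the other genotypes, and none of the 3 comparisons passed the test for either gene. TRNAG-UCC gene ID 109944746 gave nearly the same levels, at 2147 and 2407 in mm, 2689 and 3395 in Mm, 1568 in ago104, and 3546 and 816 in B73. The ratio of gene ID 109944678 to gene ID 109944746 stayed between 1.00 and 1.01 in all 6 libraries, although 169621424 bp separate them. A read that matches several sites was counted at each site the alignment reported, so the levels of such copies are not independent of each other. Together the pair held 44.8% and 45.0% of tRNA coverage in mm, 53.7% and 63.5% in Mm, 54.8% in ago104, and 68.2% and 38.6% in B73.

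The 3 TRNAE-CUC genes, for glutamate, came next. TRNAE-CUC gene ID 109944706 had 801 and 913 scaled units in mm, 671 and 694 in Mm, 310 in ago104, and 373 and 426 in B73. TRNAE-CUC gene ID 109944690 had 746 and 872 in mm, 604 and 615 in Mm, 292 in ago104, and 332 and 421 in B73. TRNAE-CUC gene ID 109944774 had 506 and 596 in mm, 419 and 482 in Mm, 168 in ago104, and 265 and 215 in B73. In each of the 3 genes both mm libraries were above both Mm libraries, and those above both B73 libraries. The ratio of gene ID 109944690 to gene ID 109944706 was 0.89 to 0.99 in the 6 libraries. Genes of the same name can count the same reads, so the 3 are not independent observations. The share of all genes with this order was not computed. The test called gene ID 109944774 higher in mm than in B73 (log2 difference 1.20 ± 0.31 SE, adjusted p = 0.0451 by limma with Benjamini-Hochberg adjustment), and gave TRNAE-CUC gene ID 109944706 an adjusted p of 0.0623 and gene ID 109944690 one of 0.0639 by limma.

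Genes for alanine made up the rest of the 10. TRNAA-AGC gene ID 109944780 had 374 and 406 scaled units in mm, 410 and 193 in Mm, 229 in ago104, and 258 and 151 in B73. TRNAA-UGC gene ID 109944667 had 315 and 327 in mm, 392 and 174 in Mm, 187 in ago104, and 192 and 117 in B73. In both, the Mm libraries lay on either side of the mm libraries. TRNAA-UGC gene ID 109944764 had 211 and 225 in mm, 293 and 136 in Mm, 137 in ago104, and 57.7 and 76.0 in B73, and it was called higher in mm than in B73 (log2 difference 1.71 ± 0.40 SE, adjusted p = 0.0322 by limma). The neighbours TRNAA-AGC gene ID 109944653 and gene ID 109944652 lie 5546 bp apart. TRNAA-AGC gene ID 109944653 had 297 and 206 in mm, 135 and 87.9 in Mm, 98.5 in ago104, and 122 and 62.9 in B73. TRNAA-AGC gene ID 109944652 followed it with 272 and 194 in mm, 117 and 81.8 in Mm, 93.5 in ago104, and 117 and 62.6 in B73. In this neighbouring pair the mm libraries did not overlap those of Mm or B73, with limma adjusted p of 0.0994 and 0.0771 against Mm and 0.0548 and 0.0545 against B73.

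At the other end, 14 tRNA genes had no coverage in the 6 libraries, and 2 had none in the ago104 library either. All 14 belong to an array of TRNAI-AAU genes, for isoleucine, of which 36 lie at a median spacing of 472 bp between 220015822 and 220056250. The 36 genes together had 13 and 14 alignments in mm, 10 and 5 in Mm, 122 in ago104, and 8 and 11 in B73, and 1 of them passed the filter of a mean of 1 scaled unit. A count of 0 allows up to 3 alignments of the library total, or 0.677 to 3.20 per 1000000 alignments in the 6 libraries, a limit that covers counting error only. The study's methods describe alignments that cap the sites reported per read or discard reads with too many sites. The part of such limits in the low coverage of this array of same-name genes was not tested. A second array, of 9 TRNAA-CGC genes between 2667348 and 2766301, was covered, and 8 of its genes were tested. Its summed level was 55.6 and 68.4 scaled units in mm, 74.1 and 36.4 in Mm, 25.6 in ago104, and 10.9 and 15.6 in B73.

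tRNA genes as a whole took 0.961% and 1.07% of the coverage of the chromosome in mm, 1.00% and 1.07% in Mm, 0.579% in ago104, and 1.04% and 0.424% in B73. mm minus Mm was -0.021 percentage points (p = 1, two-sided exact permutation test over libraries), and no comparison of 2 libraries against 2 can go below p = 0.333. B73 replicate 2 stood apart, and without it mm minus B73 turned from 0.283 to -0.0267 points and Mm minus B73 from 0.304 to -0.00554 points. Without both TRNAG-UCC genes, an alternative chosen after seeing the data, the share was 0.530% and 0.590% in mm, 0.465% and 0.391% in Mm, 0.262% in ago104, and 0.332% and 0.261% in B73. Then no genotype overlapped another, and mm was 0.132 points above Mm (exact permutation p = 0.333) and 0.198 points above the mean of Mm and B73 libraries (p = 0.133, the smallest that 2 against 4 libraries allow). The libraries also differed in how much of the chromosome they covered, with 3782910 and 5966873 bases in mm, 13887447 and 11562435 in Mm, 68523563 in ago104, and 16696690 and 22108185 in B73, and the part of this in the shares was not tested.

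The question of which tRNA genes differed between genotypes was put to limma, fitted on log2(scaled units + 1) over the 5564 annotated genes of the chromosome with a mean of at least 1 scaled unit, 111 tRNA genes among them. Differences on this scale understate the change of genes near 1 unit. The 42 tRNA genes under the filter were not tested. The 3 comparisons share libraries and are not independent of each other.

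Against Mm, 4 tRNA genes were higher in mm and 0 lower. Among all genes tested 1.47% were called higher in mm and 13.8% lower, and the median log2 difference was 0.45 over tRNA genes and -0.34 over all genes. TRNAV-UAC gene ID 109944731, the chromosome's valine gene with this anticodon (17400683 to 17400755), had 33.7 and 40.5 scaled units in mm, against 12.9 and 12.1 in Mm. Its log2 difference was 1.49 ± 0.30 (SE, limma adjusted p = 0.0191). TRNAQ-CUG gene ID 109944787, for glutamine, had 27.7 and 39.3 in mm, against 10.99 and 8.55 in Mm (log2 difference 1.67 ± 0.32 SE, limma adjusted p = 0.0160). It had 17.9 in ago104 and 22.2 and 17.4 in B73, so that both B73 libraries also lay above both Mm libraries, and mm against B73 was not called (limma adjusted p = 0.175). TRNAC-ACA gene ID 118476613, a cysteine gene by its name, had 29.5 and 35.7 in mm, against 12.5 and 7.14 in Mm (1.67 ± 0.41 SE, limma adjusted p = 0.0341), with 8.56 in ago104 and 3.67 and 7.15 in B73. TRNAM-CAU gene ID 109944660, one of the 6 methionine genes, had 16.7 and 18.7 in mm, against 4.73 and 5.80 in Mm (1.58 ± 0.31 SE, limma adjusted p = 0.0172), with 5.50 in ago104 and 6.67 and 5.80 in B73. Genes were named here only if mm and Mm did not overlap, so the lack of overlap in the 4 adds no support. These are genes of low coverage, with 7 to 67 alignments per mm or Mm library. The calls did not hold in every fit with 1 replicate left out, and neither did those over all genes. In those fits the median log2 difference was 0.29 to 0.52 over tRNA genes and -0.45 to -0.26 over all genes.

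Other short structural RNA classes were measured in the same comparison. rRNA genes had a median log2 difference of 1.31 with 0 of 209 called, snoRNA genes 1.27 with 13 of 62 higher, and snRNA genes 1.03 with 6 of 20 higher and 1 lower. Protein-coding genes had a median of -0.39, with 50 of 4015 higher and 565 lower. Scaling by the median ratio of all genes moved the median of all genes to -0.02 and that of tRNA genes to 0.80. Then 9 tRNA genes were higher and 0 lower, 8.11% and 0% of those tested, against 2.82% and 7.71% of all genes.

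**Figure D2:**
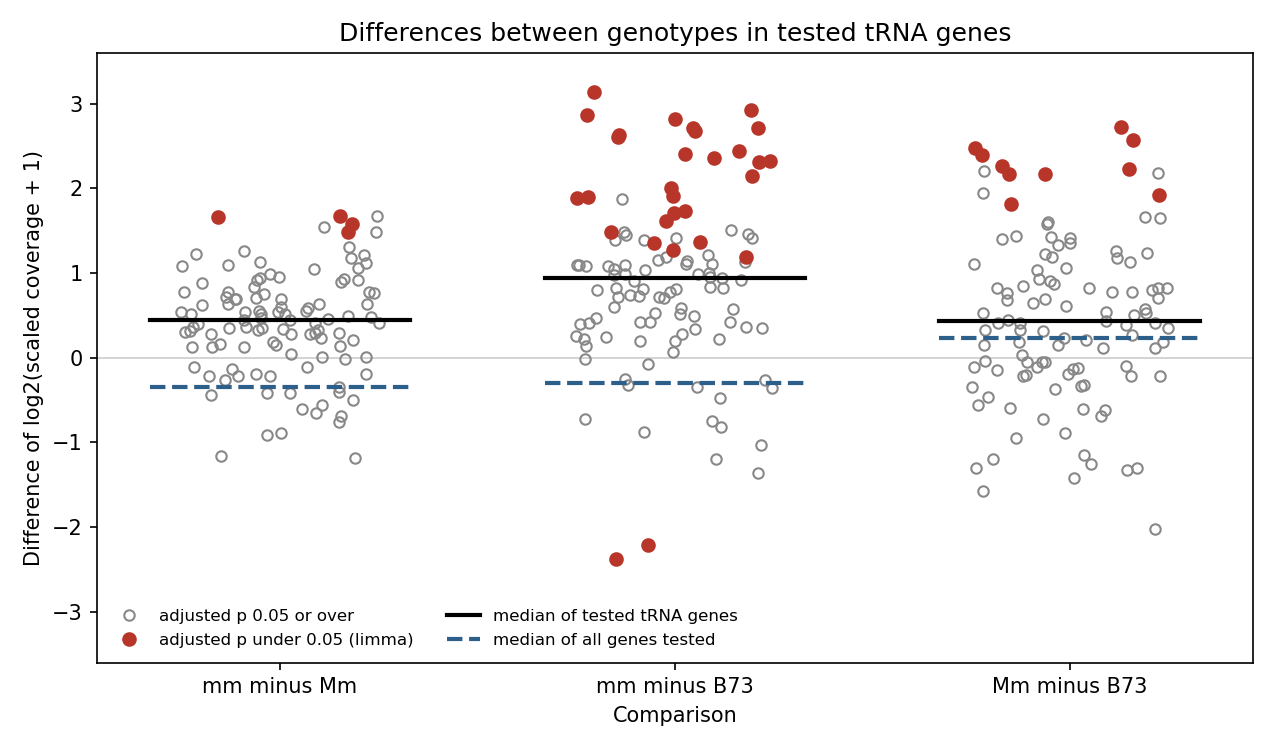
Difference of log2(scaled coverage + 1) for the 111 tested tRNA genes in each comparison, 1 circle per gene, filled where the limma adjusted p is under 0.05. The solid line is the median of tRNA genes (0.45, 0.94 and 0.43 from left to right) and the dashed line the median of all 5564 genes tested (-0.34, -0.30 and 0.23).

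Against B73, 27 tRNA genes were higher in mm and 2 lower. The background over all genes was 4.58% higher and 10.2% lower, while 24.3% of the tested tRNA genes were higher, and the median log2 difference was 0.94 over tRNA genes and -0.30 over all genes. This excess was not particular to tRNA genes, as 22 of 62 snoRNA genes were higher and 2 lower (median 1.44). For snRNA genes 8 of 20 were higher and 0 lower (median 0.61), and for miRNA genes 2 of 7 were higher (median 1.37). Of 209 rRNA genes 0 were called (median -0.41). The 27 genes bear 13 anticodon names. They include 5 of 5 genes of TRNAV-CAC (valine), 5 of 8 of TRNAW-CCA (tryptophan), 4 of the 9 tested of TRNAA-CGC (alanine), 3 of 6 of TRNAM-CAU (methionine) and 2 of 4 of TRNAD-GUC (aspartate). Genes of the same name can count the same read at several sites. The 27 calls are therefore not independent, and the sums below can count a read more than once. The part of this in the difference from all genes was not tested.

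The 5 TRNAV-CAC genes summed to 100.4 and 96.1 scaled units in mm, 57.9 and 56.5 in Mm, 32.9 in ago104, and 11.2 and 15.9 in B73. The 8 TRNAW-CCA genes summed to 192 and 186 in mm, 132 and 161 in Mm, 89.4 in ago104, and 64.0 and 47.9 in B73. The 6 TRNAM-CAU genes, of which the annotation does not separate initiators from elongators, summed to 122 and 133 in mm, 62.1 and 59.99 in Mm, 41.0 in ago104, and 51.5 and 40.8 in B73. In each of these sums both mm libraries were the highest and both B73 libraries were below both Mm libraries. These names were listed for their calls against B73, so mm above B73 in their sums adds no support. The share of all names with this order was not computed. Within TRNAW-CCA, gene ID 109944755 had 8.17 and 6.14 in mm, against 23.3 and 8.14 in B73. Likewise gene ID 109944783 had 8.17 and 4.88 in mm, against 22.8 and 8.42 in B73. The 4 TRNAD-GUC genes departed from the order of the sums, at 143 and 207 in mm, 225 and 253 in Mm, 82.3 in ago104, and 59.2 and 64.97 in B73. So did TRNAA-CGC, at 56.6 and 76.7 in mm, 83.2 and 41.9 in Mm, 28.4 in ago104, and 12.6 and 17.8 in B73. The 2 TRNAP-CGG genes did not separate mm from B73, with 78.6 and 188 in mm, 68.5 and 95.8 in Mm, 107 in ago104, and 267 and 155 in B73.

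The largest difference was at TRNAG-CCC gene ID 109944744 (222774132 to 222774202), a glycine gene with 39.6 and 54.5 scaled units in mm, 24.4 and 30.5 in Mm, 7.07 in ago104, and 4.98 and 3.83 in B73. Its log2 difference between mm and B73 was 3.14 ± 0.31 (SE, limma adjusted p = 0.00406). The tryptophan gene TRNAW-CCA gene ID 109944753 had 29.3 and 31.4 in mm, against 1.35 and 6.19 in B73 (2.93 ± 0.52 SE, limma adjusted p = 0.0143). TRNAW-CCA gene ID 109944648 had 28.1 and 31.7 in mm, 21.1 and 34.3 in Mm, 13.5 in ago104, and 2.74 and 3.76 in B73 (mm against B73, 2.87 ± 0.34 SE, limma adjusted p = 0.00498). TRNAV-UAC gene ID 109944731, given above for mm and Mm, had 3.88 in ago104 and 5.06 and 3.78 in B73 (mm against B73, 2.82 ± 0.30 SE, limma adjusted p = 0.00406). TRNAV-CAC gene ID 109944720 had 21.9 and 24.2 in mm, 10.4 and 16.4 in Mm, 7.49 in ago104, and 1.71 and 3.93 in B73 (mm against B73, 2.72 ± 0.40 SE, limma adjusted p = 0.00855). TRNAG-CCC gene ID 109944744, TRNAW-CCA gene ID 109944648 and TRNAV-UAC gene ID 109944731 stayed past the threshold between mm and B73 under each of the 13 alternatives, whose range for TRNAG-CCC was 2.46 to 3.37.

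Both genes that were lower encode tRNAs of the leucine and serine type, which have a long variable arm. TRNAS-UGA gene ID 109944784, for serine (223606455 to 223606536), had 42.5 and 54.1 scaled units in mm, 48.0 and 62.8 in Mm, 44.0 in ago104, and 398 and 128 in B73. The log2 difference between mm and B73 was -2.21 ± 0.51 (SE, limma adjusted p = 0.0308), and the B73 libraries differed from each other by more than the lower of them exceeded mm. TRNAL-UAA gene ID 109944670, for leucine, had 0 and 1.04 in mm, 1.76 and 2.79 in Mm, 2.86 in ago104, and 6.37 and 6.49 in B73, which rests on 0 and 2 alignments in mm (log2 difference -2.38 ± 0.48 SE, limma adjusted p = 0.0193). The number of tRNA genes called changed with each replicate left out, and so did the number over all genes. With 1 library left out, the median log2 difference was 0.80 to 1.10 over tRNA genes and -0.39 to -0.21 over all genes.

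Between Mm and B73, 10 tRNA genes were higher in Mm and 0 lower, against 0.557% higher and 1.01% lower among all genes tested, with a median log2 difference of 0.43 over tRNA genes and 0.23 over all genes. They were 4 genes of TRNAW-CCA, 2 of TRNAV-CAC, 2 of TRNAD-GUC, 1 of TRNAG-CCC and 1 of TRNAA-CGC, and genes of the same name are again not independent. TRNAW-CCA gene ID 109944648 had the largest difference (2.73 ± 0.34 SE, limma adjusted p = 0.0211). TRNAA-CGC gene ID 109943349, the first gene of its array, had 13.3 and 7.06 scaled units in Mm, against 0.714 and 0.896 in B73 (2.58 ± 0.44 SE, limma adjusted p = 0.0410), and 4.36 and 7.31 in mm. TRNAW-CCA gene ID 109944752 had 29.6 and 41.0 in Mm, against 4.68 and 6.33 in B73 (2.47 ± 0.32 SE, limma adjusted p = 0.0211). TRNAG-CCC gene ID 109944744 differed by 2.40 ± 0.31 (SE, limma adjusted p = 0.0222). TRNAW-CCA gene ID 109944779 had 20.1 and 22.9 in Mm, against 2.26 and 5.72 in B73 (2.26 ± 0.41 SE, limma adjusted p = 0.0482). With the replicate numbers as a block 5 were called higher, 4.50% of the tRNA genes tested against 0.198% of all genes. The calls did not hold in every fit with 1 replicate left out, and neither did those over all genes. With 1 library left out, the median log2 difference was 0.27 to 0.62 over tRNA genes and 0.16 to 0.33 over all genes. The 2 TRNAD-GUC genes, gene ID 109944776 and gene ID 109944777, which lie 8247 bp apart, differed by 2.17 each (limma adjusted p = 0.0211 and 0.0233) and are named here after their values were seen.

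Alignments in tRNA genes differed in length from those elsewhere on the chromosome. Lengths were rebuilt by pairing each rise of depth with the earliest fall still open, over 16 to 21 bases, since the files hold depths and not reads. This window held 96.3% to 99.3% of all rebuilt alignments in the 6 libraries and 91.7% in ago104. Its upper edge is 21 bases, so the longer siRNAs that the study describes are outside it. In tRNA genes 21 bases was the leading length, at 45.5% and 48.7% of alignments in mm, 55.3% and 62.9% in Mm, 56.7% in ago104, and 72.3% and 49.98% in B73. In the rest of the chromosome 21 bases made up 1.03% to 1.53% in the 6 libraries. The difference of 54.5 ± 10.1 percentage points (SD over 6 libraries) was positive in 6 of 6 (p = 0.03125, adjusted p = 0.03125 over 6 lengths, two-sided exact permutation test by sign flips, the smallest that 6 libraries allow). Alignments of 20 bases were also more frequent in tRNA genes, at 9.80% to 19.03% against 4.64% to 10.6%, again in 6 of 6 libraries.

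This excess of 21 bases rested on few positions. Both TRNAG-UCC genes held most of it, and without them 21 bases made up 13.1% to 34.3% of tRNA alignments in the 6 libraries (adjusted p = 0.0375, exact permutation test, 6 of 6). When each start and length was counted once, in 789 to 1305 places per library, the share was 9.58% to 11.9% in tRNA genes against 1.62% to 2.41% in the rest, in 6 of 6 libraries (adjusted p = 0.0625, exact permutation test). Among isolated stretches, which have 1 depth throughout, touch no other alignment and need no pairing, it was 2.33% to 8.45%, over 33 to 71 alignments per library in tRNA genes. Of the 42 to 61 tRNA genes with at least 20 alignments in a library, 21 bases was the most common length in 7 to 12.

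**Figure D3:**
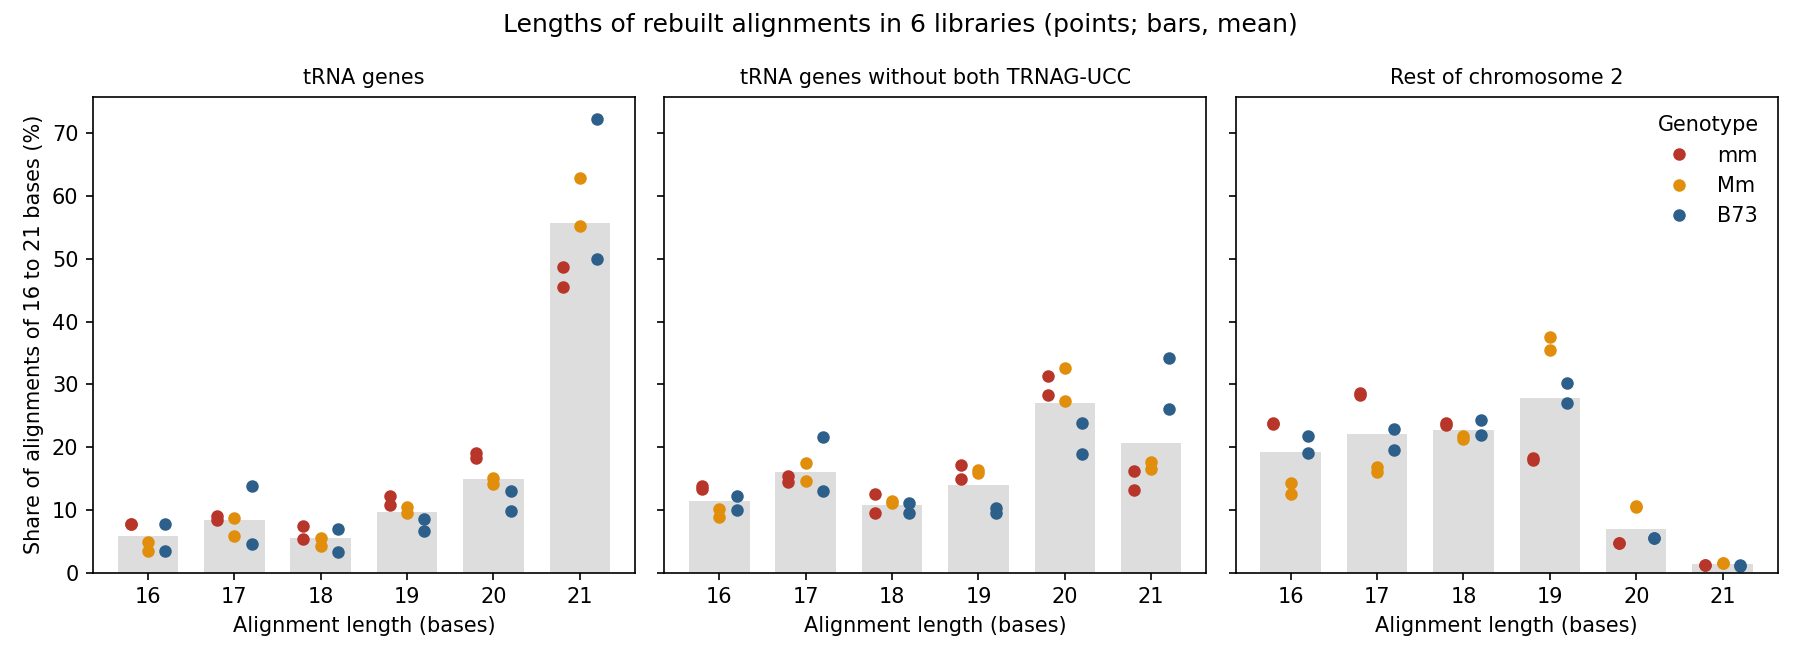
Share of alignments of each length from 16 to 21 bases (horizontal axis) in tRNA genes, in tRNA genes without both TRNAG-UCC genes, and in the rest of chromosome 2, with 1 point per library and a grey bar at the mean of the 6 libraries. The 21-base bar reaches 55.8% in tRNA genes, 20.6% without the TRNAG-UCC genes and 1.29% in the rest.

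Between genotypes the 21-base share averaged 47.1% ± 2.26 in mm, 59.1% ± 5.35 in Mm and 61.1% ± 15.8 in B73 (SD, n = 2 each), and no comparison could pass the exact permutation test, whose smallest p is 0.333. Without both TRNAG-UCC genes it was 13.1% and 16.1% in mm, 17.7% and 16.5% in Mm, 20.06% in ago104, and 34.3% and 26.1% in B73. Mm minus B73 was then -13.1 points, against -2.05 with them, and mm minus Mm was -2.45, against -11.9. The 19-base share of tRNA alignments was 12.2% and 10.8% in mm, 10.5% and 9.47% in Mm, 9.22% in ago104, and 6.62% and 8.49% in B73, with no overlap between genotypes (exact permutation p = 0.333 for each comparison). The 17-base share was 9.003% and 8.35% in mm, 8.63% and 5.82% in Mm, 9.67% in ago104, and 4.52% and 13.7% in B73, where the B73 libraries lay on either side of the rest. Counted once per start and length, mm exceeded B73 at 21 bases by 1.51 points and differed from it by -0.639 points at 19 bases, the reverse of the direction over all alignments.

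The alignments were also fixed in position. Bases of a gene are counted here from 1 at its low-coordinate end, because the annotation used here gives no strand. In both TRNAG-UCC genes a stack of identical 21-base alignments over bases 48 to 68 of 72 held 85.9% to 89.0% of the gene's alignments in the 6 libraries and 86.2% and 86.5% in ago104. A second stack over bases 50 to 68, with the same end, held 5.23% to 5.67% in the 6 libraries. Thus nearly all alignments at these genes ended 4 bases inside the high-coordinate gene end. The same distance was found at the other end in TRNAA-AGC gene ID 109944780, whose leading stack covered bases 5 to 25 in B73 and Mm and bases 5 to 20 in mm and ago104. In TRNAS-UGA gene ID 109944784 the stack over bases 5 to 24 held 54.2% to 71.6% of alignments, and in TRNAA-UGC gene ID 109944667 the leading stack was at bases 49 to 69 of 73 in all 7 libraries.

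**Figure D4:**
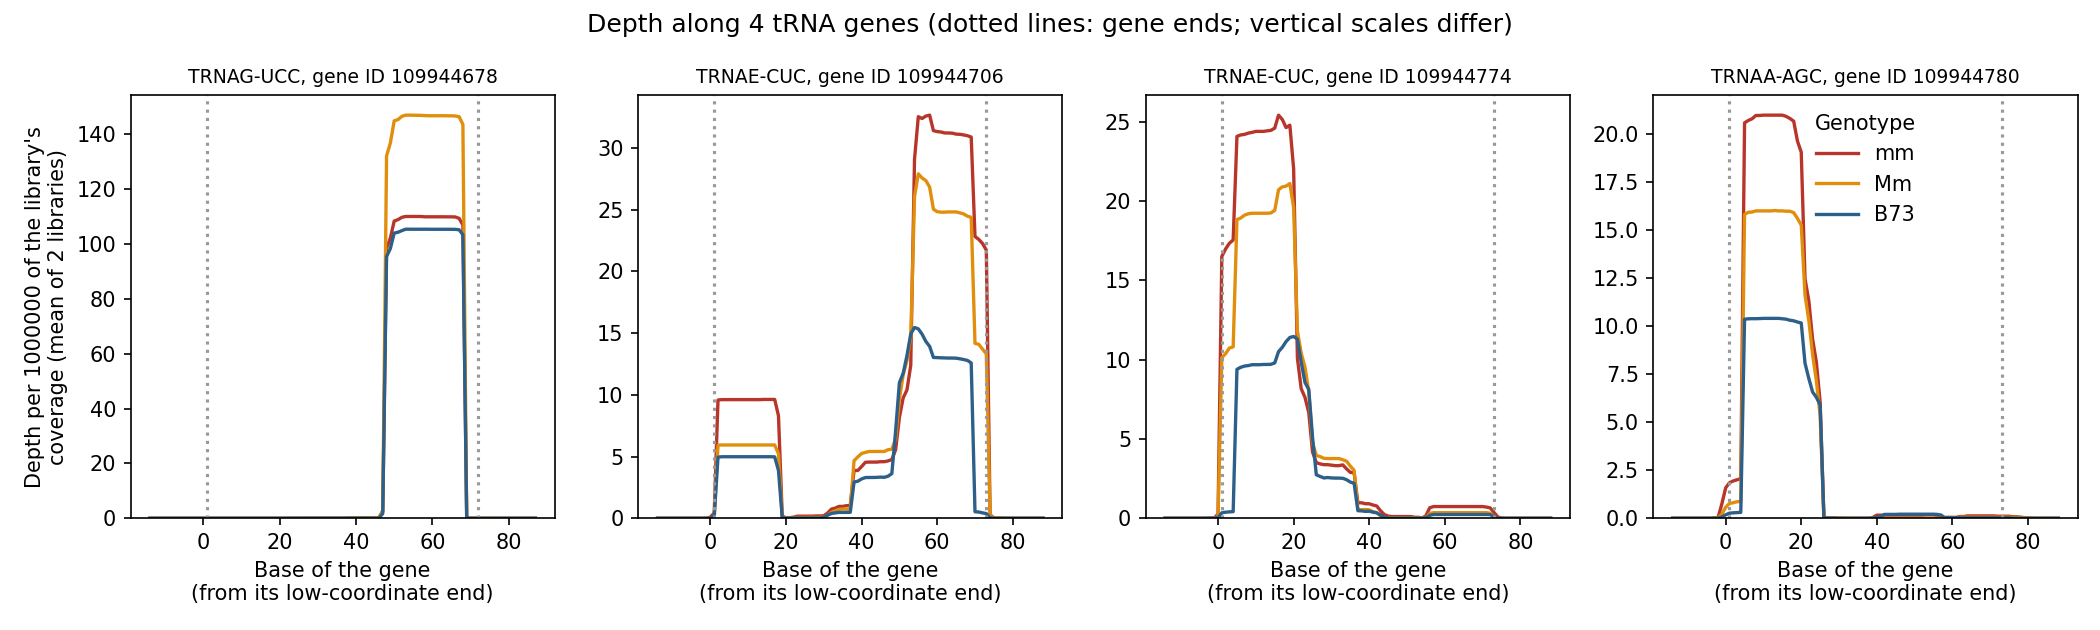
Depth per 1000000 of the library's coverage along 4 tRNA genes (mean of 2 libraries per genotype), against the base of the gene from its low-coordinate end, with dotted lines at the gene ends and vertical scales that differ between panels. TRNAG-UCC gene ID 109944678 has a single block over bases 48 to 68, and mm and Mm keep much of their depth over the last 4 bases of TRNAE-CUC gene ID 109944706 and the first 4 bases of TRNAE-CUC gene ID 109944774, where B73 is close to 0.

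Over all tRNA genes, the outer end of an alignment, the one nearer to a gene end, lay exactly 4 bases inside in 66.8% and 68.6% of alignments in mm, 80.0% and 79.9% in Mm, 81.2% in ago104, and 90.9% and 77.9% in B73. This was measured after the pattern was seen. It held in 37.4% to 73.5% of alignments in genes before b1 and in 67.6% to 91.1% in genes beyond it. It was found at both gene ends, with 1308 to 3535 alignments in 43 to 52 genes at the low end and 3956 to 19575 in 34 to 39 genes at the high end per library. Alignments of 21 bases made up 61.4% to 77.4% of those at 4 bases and 7.09% to 21.2% of the others. The middle of the genes, as 1 of 3 equal lengths and by alignment midpoint, held 2.18% to 3.09% of alignments. Of the genes with at least 20 alignments, 4 bases was the most common distance in 21 of 42 and 31 of 54 in mm, 32 of 43 and 30 of 44 in Mm, 65 of 105 in ago104, and 35 of 44 and 37 of 61 in B73.

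mm was 12.2 percentage points below Mm at this distance and 14.4 below the mean of the Mm and B73 libraries, with no overlap (exact permutation p = 0.333 and 0.133, the smallest these designs allow). Without both TRNAG-UCC genes the values were 43.6% and 45.4% in mm, 59.9% and 49.3% in Mm, 61.6% in ago104, and 75.6% and 65.7% in B73. Without the TRNAE-CUC genes as well they were 58.9% and 61.7% in mm, 74.7% and 64.3% in Mm, 73.05% in ago104, and 77.2% and 68.3% in B73. With each start and length counted once, mm had 26.1% and 23.5%, Mm 33.0% and 32.3%, ago104 18.2%, and B73 25.2% and 20.8%, so that mm no longer lay below B73.

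Genes of some names departed from the 4-base distance. In the 3 TRNAE-CUC genes the outer end lay at the very end of the gene in 59.7% and 60.0% of alignments in mm, 45.4% and 48.1% in Mm, 26.2% in ago104, and 0.872% and 5.19% in B73. The 4-base distance held 16.1% and 16.8% in mm, 29.1% and 29.3% in Mm, 30.4% in ago104, and 71.4% and 61.8% in B73. No genotype overlapped another in either measure. The leading stack of TRNAE-CUC gene ID 109944706 was at bases 54 to 73 in mm (41.8% and 45.7% of its alignments) and Mm (37.2% and 37.5%), at bases 2 to 18 in ago104 and B73 replicate 2, and at bases 50 to 69 in B73 replicate 1. TRNAE-CUC gene ID 109944774 had its leading stack at bases 1 to 20 in mm, Mm and ago104, and at bases 5 to 24 or 5 to 25 in B73. This mirrors the leading stack of gene ID 109944706 in mm, Mm and B73 replicate 1. In ago104 and B73 replicate 2 the mirror of bases 2 to 18 was not among its 3 largest stacks.

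The 8 TRNAW-CCA genes had almost no alignments at 4 bases in any genotype, with 1.08% and 1.94% in mm, 0.909% and 0.826% in Mm, 0.534% in ago104, and 0% in both B73 libraries. Alignments flush with the gene end made up 48.4% and 43.9% in mm, 58.2% and 64.5% in Mm, 55.5% in ago104, and 5.00% and 8.29% in B73, over 160 to 310 alignments per library outside ago104. These shares pool genes that weigh differently by genotype. Gene ID 109944755 and gene ID 109944783, of 74 bases, held 60 and 59 alignments in B73 replicate 1 and 32 and 34 in B73 replicate 2. They held 9 and 9 in mm replicate 1 and 12 and 9 in mm replicate 2. The part of this in the pooled shares was not tested. In TRNAW-CCA gene ID 109944752 the stack over bases 1 to 18 led in mm, Mm and ago104, and other stacks of 3 and 6 alignments led in the B73 libraries. TRNAV-UAC gene ID 109944731 had its leading stack at bases -1 to 19 in mm and Mm, from 2 bases outside the gene. It lies before the b1 locus, where the shift of the gene positions that gathered most coverage was -2 bases in the 6 libraries. In contrast, TRNAG-UCC genes had 97.1% and 97.3% of alignments at 4 bases in mm, 97.5% and 97.8% in Mm, 97.8% in ago104, and 98.1% in both B73 libraries, so that their genotypes did not overlap either but spanned about 1 percentage point. TRNAP-CGG genes, for proline, had 88.9% to 97.5% in the 6 libraries. The names in this comparison were chosen after their values were seen, and it carries no test across genotypes beyond the overlap given.

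**Figure D5:**
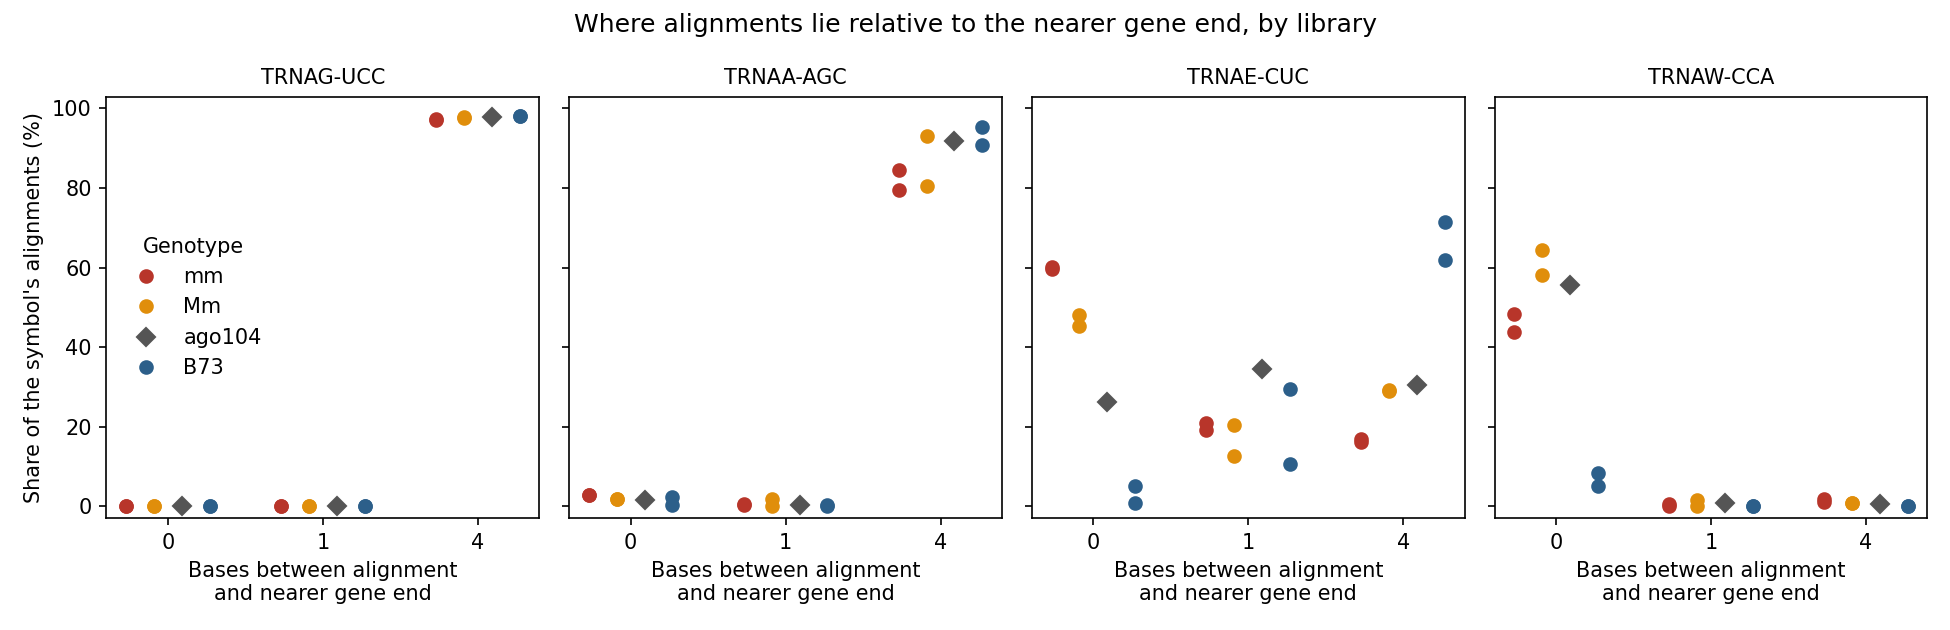
Share of the alignments of 4 tRNA gene names (panels) whose outer end lies 0, 1 or 4 bases inside the nearer gene end (horizontal axis), with 1 point per library. TRNAG-UCC and TRNAA-AGC sit at 4 bases in every library, while TRNAE-CUC and TRNAW-CCA at 0 bases reach 43.9% or more in mm and Mm and at most 8.29% in B73.

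Well-covered genes of the same name and length shared their depth profile. Among 22 genes with at least 200 alignments over the 6 libraries, 17 pairs had the same name and length, and in 17 of 17 the profiles correlated across bases at an r over 0.8 either directly (12 pairs) or with one gene reversed (5 pairs). These correlations are across bases of 1 gene pair and describe shape only. Such genes can count the same reads, which alone makes profiles alike, and the closer of the direct and reversed profiles was taken. The part of shared reads in the agreement was not tested. TRNAE-CUC gene ID 109944690 and gene ID 109944706 correlated at 1.00 directly, whereas each correlated at 0.95 and 0.96 with TRNAE-CUC gene ID 109944774 reversed. TRNAA-UGC gene ID 109944667 and gene ID 109944764 correlated at 0.99 reversed and -0.25 directly. Profiles agreed even where levels did not, as the ratio of TRNAA-AGC gene ID 109944780 to gene ID 109944652 ran from 1.37 to 3.51 over the 6 libraries, and that of TRNAA-UGC gene ID 109944667 to gene ID 109944764 from 1.28 to 3.32.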

How the data were processed

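The authors deposited, for each library, the coverage signal along chromosome 2 as whole-number depths without strand, not scaled to library size. According to the study's methods, reads were cleaned with Trimmomatic and aligned with Bowtie 1 (version 1.2.2 per the labels), and coverage was made with bedtools. The alignments allowed mismatches and a limited number of sites per read, and one of them discarded reads with too many sites. Which of the described alignments made these tables is not given in the sources used here. Tables of length classes were not used.

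Gene positions were taken from the RefSeq table as annotated and, beyond 19770000, with 7855 bp added, since the tables include the inserted b1 repeats. The shift that gathered most coverage lay within -2 and 4 bp of this. The 4-base distance at both gene ends was read at these positions. Coverage was summed per gene and scaled to 1000000 per library. limma 3.58.1 (R 4.3.3) with trend was fitted to log2(scaled coverage + 1) for the 3 genotypes, over genes with a mean of at least 1, with Benjamini-Hochberg adjustment at 0.05. Alignment lengths were rebuilt first in, first out, which mispairs alignments that cross. Intervals and limits cover counting error only, and p-values measure the spread between libraries. The ago104 library entered no test. Named genes were the 10 of highest mean coverage and, per comparison, up to 5 largest rises and 5 largest falls past the threshold without overlap. The members and lists were chosen with earlier results of these data known. Scripts were tested on simulated data. Python 3.11.15, numpy 2.4.6, scipy 1.17.1 and pandas 2.3.3 were used.

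The planned share of coverage in the 5' part of genes was not computed, since the annotation used here has no strand. Alternatives were another pseudocount, scaling, filter, gene bounds, trend, block or set of genotypes, and each replicate left out.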

Additional observations from a re-analysis of the deposited data

Results flagged for a closer look

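TRNAA-UGC gene ID 109944764 had 137 scaled units in the ago104 library, which entered no comparison, above both B73 libraries (57.7 and 76.0). The 19-base share of tRNA alignments was 9.22% in the ago104 library, above 6.62% and 8.49% in B73. There is 1 ago104 library, and neither difference was tested.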

How the results depend on the processing

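Of the calls named by the rule, each kept its direction under the 13 alternatives, but most lost the threshold in some. TRNAW-CCA gene ID 109944779 (Mm against B73) was called in 3 of 13, TRNAA-CGC gene ID 109943349 (Mm against B73) and TRNAE-CUC gene ID 109944774 (mm against B73) in 5, TRNAA-UGC gene ID 109944764 and TRNAS-UGA gene ID 109944784 (mm against B73) in 7, and the others in 8 to 13. Both TRNAD-GUC genes were not followed over the alternatives. With 2 genotypes in the fit, 13 tRNA genes were called between mm and Mm (11.7% higher, against 12.2% of all genes tested). That fit called 17 between mm and B73 (15.3% higher, against 1.97% of all genes) and 0 between Mm and B73. Median-ratio scaling gave 9 between mm and Mm (8.11% higher, against 2.82% of all genes). Leaving out 1 replicate gave 0 to 11, 7 to 45 and 0 to 30 in the same order. These fits assume that a lone library varies like the others. Replicate numbers did not pair the libraries (correlations of deviations from -0.02 to 0.08), and the replicate block gave 5, 25 and 5 calls. In the same order 4.50%, 21.6% and 4.50% of tRNA genes were then higher, against 1.33%, 4.21% and 0.198% of all genes.

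Several share differences changed direction. For mm minus Mm, the share of coverage was 0.202 points with each start and length counted once, 0.0775 over covered bases, 0.0557 without the gene of highest coverage and 0.132 without both TRNAG-UCC genes. Leaving out 1 replicate gave -0.077 to 0.0348 for mm minus Mm, -0.0267 to 0.593 for mm minus B73 and -0.00554 to 0.614 for Mm minus B73. At 17 bases, mm minus Mm was -8.28 over isolated stretches, -0.742 counted once and -1.14 without both TRNAG-UCC genes, Mm minus B73 was 0.0808 over isolated stretches, and leave-outs gave -5.06 to 4.15 for mm minus B73, -6.51 to 2.71 for Mm minus B73 and 0.0424 to 2.85 for mm minus Mm. At 19 bases, isolated stretches gave -9.66, -16.2 and -6.53 for mm minus Mm, mm minus B73 and Mm minus B73, counting once gave -0.639 and -1.18 for mm and Mm minus B73, and mm minus Mm was -0.0804 without both TRNAG-UCC genes. At 21 bases, isolated stretches gave 2.43, 3.70 and 1.27, counting once 0.312, 1.51 and 1.20, and leave-outs -13.2 to 9.10 for Mm minus B73, turning without B73 replicate 1 or Mm replicate 1 (1.73). The share at 4 bases was 1.76 and 9.65 for mm and Mm minus B73 counted once, and -10.9 to 2.03 for Mm minus B73 with 1 replicate left out. The cause of these changes was not tested. The alternatives without both TRNAG-UCC genes and all values at 21 bases and at 4 bases were chosen after seeing the data, and the alternatives of the 5' share were not run. Depth limits the low genes, and 42 tRNA genes could not be tested.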
